A study of Mus musculus with 24 samples.

Results

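Cell cycle and DNA replication genes were followed through the differentiation of mouse embryonic stem cells, with and without 2 drugs that block calcineurin. The list was put together by name and holds 40 genes, and 39 of them had a probe set annotated to that gene alone, out of 19938 genes measured in this way. The cyclin gene Ccnb1 had no such probe set and is not analysed here. By textbook role, 17 of the 39 act in or before S phase and 22 in mitosis. Of the 17, 4 are G1/S cyclins and kinases with their phosphatase. Another 9 form, load or start the replicative helicase at origins, and 4 supply nucleotides or clamp the polymerase. Of the 22, 7 are mitotic entry cyclins and kinases with their phosphatase, 7 belong to the kinetochore and the spindle checkpoint, 6 build the spindle and the cleavage site, and 2 are mitotic chromosome proteins.

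The cells were 46C embryonic stem cells, a mouse line with a fluorescent reporter inserted at Sox1, grown into embryoid bodies (EBs), which are aggregates of differentiating cells. Untreated EBs were compared with EBs given FK506 at 100 ng/ml and cyclosporin A at 1 ug/ml from day 3 to day 8. Both were collected at days 4, 6, 8 and 12, so that the last collection came 4 days after the drugs were withdrawn, and each of the 8 groups had 3 arrays from 3 independent experiments. All groups began on gelatin with LIF on day 1 and moved to low attachment dishes on day 3. In the protocol EBs were plated on day 7 and given serum-free ITS medium from day 8. The arrays of days 4 and 6 were thus collected before both steps. Changes after day 6 coincide with these steps in treated and untreated EBs. Whole EBs of 1 cell line were measured, so every value is a mix of cell types. In such bulk samples fewer dividing cells and less RNA per dividing cell cannot be told apart.

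A dividing cell switches these genes on in waves. E2F factors, released from the retinoblastoma family as cyclin D and cyclin E kinases become active, switch on the genes for origin licensing and nucleotide supply in late G1. The mitotic genes follow later, under the DREAM and B-Myb-FoxM1 complexes, which bind a short promoter element called CHR. A CCAAT box often lies near the CHR. Naive embryonic stem cells divide fast with a short G1 phase, and the cycle lengthens as they differentiate.

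The promoters of the members carried these elements, and 6 are printed here as the first members of each phase in list order that held a motif. They are RefSeq windows of build GRCm38.p6 from 250 bases before to 50 bases after the start site, and capitals mark the motifs found on either strand. Those on the minus strand appear as their reverse complement.
Cdk2 (S phase, chr10:128705002-128705301, minus strand): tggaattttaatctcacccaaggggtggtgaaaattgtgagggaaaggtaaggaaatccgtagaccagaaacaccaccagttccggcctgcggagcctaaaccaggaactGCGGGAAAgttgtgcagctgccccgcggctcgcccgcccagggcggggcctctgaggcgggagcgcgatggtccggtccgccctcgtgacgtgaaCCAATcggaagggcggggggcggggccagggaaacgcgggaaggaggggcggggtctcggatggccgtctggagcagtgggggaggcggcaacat
Cdc25a (S phase, chr9:109875329-109875628, plus strand): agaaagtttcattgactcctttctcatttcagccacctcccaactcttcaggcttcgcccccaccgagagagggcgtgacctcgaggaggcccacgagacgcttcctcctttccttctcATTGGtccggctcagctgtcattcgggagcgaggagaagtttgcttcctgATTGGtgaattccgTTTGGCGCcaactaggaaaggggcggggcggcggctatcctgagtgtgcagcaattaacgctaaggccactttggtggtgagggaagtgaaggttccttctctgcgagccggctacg
Cdc6 (S phase, chr11:98907901-98908200, plus strand): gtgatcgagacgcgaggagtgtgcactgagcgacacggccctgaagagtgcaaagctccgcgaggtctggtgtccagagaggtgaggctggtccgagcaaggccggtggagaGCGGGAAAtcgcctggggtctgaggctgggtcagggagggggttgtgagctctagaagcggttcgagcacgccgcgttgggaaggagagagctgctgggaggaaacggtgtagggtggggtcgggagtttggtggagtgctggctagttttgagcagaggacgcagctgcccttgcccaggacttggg
Ccnb2 (mitotic, chr9:70421505-70421804, minus strand): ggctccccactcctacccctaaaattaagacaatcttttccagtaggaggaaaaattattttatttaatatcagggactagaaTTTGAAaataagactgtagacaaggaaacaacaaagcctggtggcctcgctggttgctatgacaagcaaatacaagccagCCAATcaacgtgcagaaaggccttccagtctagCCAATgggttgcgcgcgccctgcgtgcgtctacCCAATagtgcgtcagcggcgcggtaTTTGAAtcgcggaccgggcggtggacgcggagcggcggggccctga
Cdk1 (mitotic, chr10:69352863-69353162, minus strand): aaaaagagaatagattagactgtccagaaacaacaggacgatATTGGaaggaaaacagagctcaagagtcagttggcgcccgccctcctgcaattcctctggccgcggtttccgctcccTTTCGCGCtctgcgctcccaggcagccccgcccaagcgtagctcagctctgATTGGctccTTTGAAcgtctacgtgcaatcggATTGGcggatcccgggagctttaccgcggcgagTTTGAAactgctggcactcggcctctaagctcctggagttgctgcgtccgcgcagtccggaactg
Plk1 (mitotic, chr7:122159185-122159484, plus strand): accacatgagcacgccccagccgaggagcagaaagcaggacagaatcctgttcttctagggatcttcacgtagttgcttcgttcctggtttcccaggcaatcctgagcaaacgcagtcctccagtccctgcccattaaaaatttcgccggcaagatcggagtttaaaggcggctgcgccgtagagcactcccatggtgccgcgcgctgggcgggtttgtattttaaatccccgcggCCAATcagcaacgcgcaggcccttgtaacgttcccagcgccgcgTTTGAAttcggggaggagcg

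The motif letters were TTTGAA or TTCGAA for CHR, CCAAT for the CCAAT box, and TTTCGCGC, TTTGGCGC, TTCCCGCC or TTTCCCGC for the E2F site. In the printed windows the capitals of different motifs do not overlap. Cdc25a held its E2F letters at position -67 from the start site, and Cdc6 at position -138. The CHR letters lay at positions -167 and 5 in Ccnb2, at -71 and -15 in Cdk1, and at 31 in Plk1. Of the 39 members measured, 32 had a window, with 34 windows in all. CHR letters occurred in 16 of 18 mitotic windows (88.9%) and 2 of 16 S phase windows (12.5%), against 19.2% of all 32851 windows. E2F letters showed the opposite split, in 1 of 18 mitotic windows (5.56%, the gene being Cdk1) and 9 of 16 S phase windows (56.2%), against 3.49% of all windows. A CCAAT box was present in 88.9% of mitotic and 75% of S phase windows, against 37.4% of all. CHR together with CCAAT was held by 83.3% of mitotic, 12.5% of S phase and 7.52% of all windows. These matches describe letters in the windows and are not measured binding sites.

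Values are log2 signals, so a difference of 1 is a doubling. Each difference is given with its standard error (SE), and every adjusted p-value comes from limma with Benjamini-Hochberg adjustment over all 19938 genes, with a gene called at an adjusted p under 0.05. Array medians lay between 7.8 and 7.88. The treated arrays of replicate 2 stood apart at days 8 and 12. The mean signal of the 39 members was 11.39 there at day 8, against 11.21 and 11.28 in treated replicates 1 and 3, and 11.09 at day 12, against 10.84 and 10.87. In the same array at day 8 the mean of 12 pluripotent cell markers was 10.64, against 9.58 and 9.97, and the mean of 10 mesenchyme markers was 9.72, against 11.25 and 10.76. Untreated replicate 2 at day 8 also had the lowest mean of the mesenchyme markers in its group, 8.92 against 9.78 and 9.25. Values without these arrays are given beside counts and medians that they moved.

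S phase genes fell during differentiation, and so did many mitotic genes. From day 4 to day 12 of untreated culture, 16 of 17 S phase members fell, with a median difference of -0.65. Of the 22 mitotic members 13 fell and 3 rose, with a median of -0.23. Among all genes 30.2% fell and 27% rose, with a median of -0.06. The difference between the phases was not tested.

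Ccne1, which encodes the cyclin E that drives entry into S phase, had the largest change of all members. Its untreated signals were 12.57, 12.50 and 12.54 at day 4, 11.48, 11.61 and 11.50 at day 6, 11.45, 11.64 and 11.43 at day 8, and 10.77, 10.79 and 10.53 at day 12. The arrays of days 6 and 8 overlapped and the other days were separate. Ccne1 fell by 1.84 from day 4 to day 12 (SE 0.12, adjusted p = 1.31e-11), with -1.01 of this between days 4 and 6 and -0.81 between days 8 and 12. Treated EBs gave 12.54, 12.47 and 12.46 at day 4 and 10.50, 10.81 and 10.69 at day 12, a difference of -1.82 (adjusted p = 1.88e-11). Its close relative Ccne2 had a smaller difference. In untreated EBs this was -0.37 from day 4 to day 12, not called without untreated day 4 replicate 2 or untreated day 12 replicate 3, and its signals lay between 9.21 and 9.52 on every array of days 4, 6 and 8.

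All 9 genes of origin licensing and the helicase fell from day 4 to day 12, with a median of -0.74 in untreated and -0.97 in treated EBs. Mcm10, which helps the loaded helicase start, fell furthest among them. Its untreated signals went from 10.96, 10.98 and 11.09 at day 4 through 10.66, 10.74 and 10.76 at day 6 and 10.33, 10.56 and 10.53 at day 8 to 9.83, 10.01 and 9.77 at day 12, with no overlap between days. The difference over the whole course was -1.14 (SE 0.11, adjusted p = 4.02e-09) in untreated EBs and -1.49 (adjusted p = 6.39e-11) in treated EBs. Cdc6, the factor that loads the helicase, had untreated signals of 9.80, 9.76 and 9.59 at day 4, 9.10, 9.15 and 9.26 at day 6, 9.29, 9.36 and 9.48 at day 8, and 8.85, 8.89 and 8.62 at day 12. Day 4 was the highest and day 12 the lowest, with a difference of -0.93 (SE 0.11, adjusted p = 1.23e-07). Mcm5, a subunit of the helicase ring, was at 11.86, 11.81 and 11.88 at day 4, 11.70, 11.63 and 11.64 at day 6, 11.47, 11.66 and 11.54 at day 8 and 11.12, 11.18 and 11.17 at day 12 (difference -0.70, SE 0.08, adjusted p = 9.87e-08). Only its arrays of days 6 and 8 overlapped.

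The nucleotide and clamp genes were less uniform. Tyms, the thymidylate synthase, fell by 0.86 in untreated EBs (adjusted p = 7.18e-09). Rrm2, the small subunit of ribonucleotide reductase, was at 12.34, 12.42 and 12.43 at day 4, 11.93, 11.91 and 11.95 at day 6, 12.14, 12.18 and 12.23 at day 8 and 12.11, 12.02 and 11.88 at day 12. Its lowest mean was thus at day 6, though those arrays overlapped with day 12, and the difference from day 4 to day 12 was -0.40 (SE 0.10, adjusted p = 0.00201). Rrm1, the large subunit of the same enzyme, was the S phase member that did not pass the test in untreated EBs, with a difference of -0.01. Pcna, the sliding clamp of the polymerase, was at 13.15, 13.12 and 13.09 at day 4, 12.83, 12.82 and 12.84 at day 6, 12.85, 13.04 and 12.93 at day 8, and 12.87, 12.73 and 12.81 at day 12. It fell by 0.32 (SE 0.07, adjusted p = 0.000881). Pcna has near-identical pseudogene copies and a second probe set with the same differences to within 0.01 at day 12, so its signal is uncertain.

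Among mitotic genes, the spindle checkpoint kinases fell most. Ttk had untreated signals of 10.74, 10.83 and 10.74 at day 4, 10.82, 10.77 and 10.71 at day 6, 10.19, 10.39 and 10.32 at day 8, and 10.03, 10.12 and 9.87 at day 12. Days 4 and 6 overlapped and all later arrays were lower, with a difference of -0.77 (SE 0.09, adjusted p = 8.42e-08) over the course and -1.14 (adjusted p = 1.73e-10) in treated EBs. Bub1, a kinase that guards chromosome attachment, read 12.43, 12.42 and 12.45 at day 4, 12.46, 12.61 and 12.42 at day 6, 11.99, 12.23 and 12.18 at day 8, and 11.77, 11.84 and 11.86 at day 12. Days 4 and 6 overlapped and both lay above the later days (difference -0.61, adjusted p = 7.99e-06). Cdk1, the kinase that starts mitosis, was at 12.70, 12.74 and 12.69 at day 4, 12.54, 12.60 and 12.64 at day 6, 12.53, 12.63 and 12.57 at day 8 and 12.29, 12.38 and 12.41 at day 12. Its fall of 0.35 (SE 0.07, adjusted p = 9.17e-05) was small beside that of Ttk on this scale. Plk1, the polo kinase of mitotic entry, gave 12.11, 12.10 and 12.17 at day 4, 12.22, 12.34 and 12.25 at day 6, 12.11, 12.19 and 12.19 at day 8 and 11.95, 12.01 and 11.93 at day 12, a fall of 0.16 (adjusted p = 0.037). The fall of Plk1 was not called under 9 of 17 alternatives, among them quantile normalization and the omission of any 1 untreated array of day 4 or of untreated day 12 replicate 1 or 3. Over these alternatives its difference lay between -0.20 and -0.08, with adjusted p-values of up to 0.313.

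The 3 members that rose over the untreated course were all mitotic. Mki67, the gene of the proliferation marker Ki-67, was at 11.85, 11.87 and 11.96 at day 4, 11.92, 11.99 and 11.96 at day 6, 12.06, 12.05 and 12.07 at day 8 and 12.21, 12.24 and 12.24 at day 12. The day 12 arrays were above all earlier ones, and the rise was 0.34 (SE 0.06, adjusted p = 2.22e-05) in untreated and 0.16 (adjusted p = 0.0223) in treated EBs. Aurkb, the Aurora B kinase, rose by 0.29 (SE 0.08, adjusted p = 0.00341) from 11.58, 11.56 and 11.62 at day 4 to 11.81, 11.97 and 11.85 at day 12, with 11.71, 11.81 and 11.76 at day 6 and 11.68, 11.78 and 11.77 at day 8. Cdc25c, the phosphatase that activates Cdk1, peaked early. It was at 9.11, 9.11 and 9.23 at day 4, 9.74, 9.74 and 9.72 at day 6, 9.18, 9.37 and 9.34 at day 8 and 9.31, 9.60 and 9.40 at day 12, so that every day 6 array lay above every other untreated array. The rise to day 6 was 0.58 (adjusted p = 3.57e-05), the fall to day 8 was -0.43 (adjusted p = 0.00101), and the net rise to day 12 was 0.29 (SE 0.09, adjusted p = 0.00873). This net rise of Cdc25c was not called without untreated day 12 replicate 2, without replicate 2 in every group or with quantile normalization, where the adjusted p reached 0.128 and the difference was as low as 0.18. The treated rise of Mki67 was not called without treated day 4 replicate 1 or treated day 12 replicate 2, which left 0 mitotic members higher there.

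**Figure D1:**
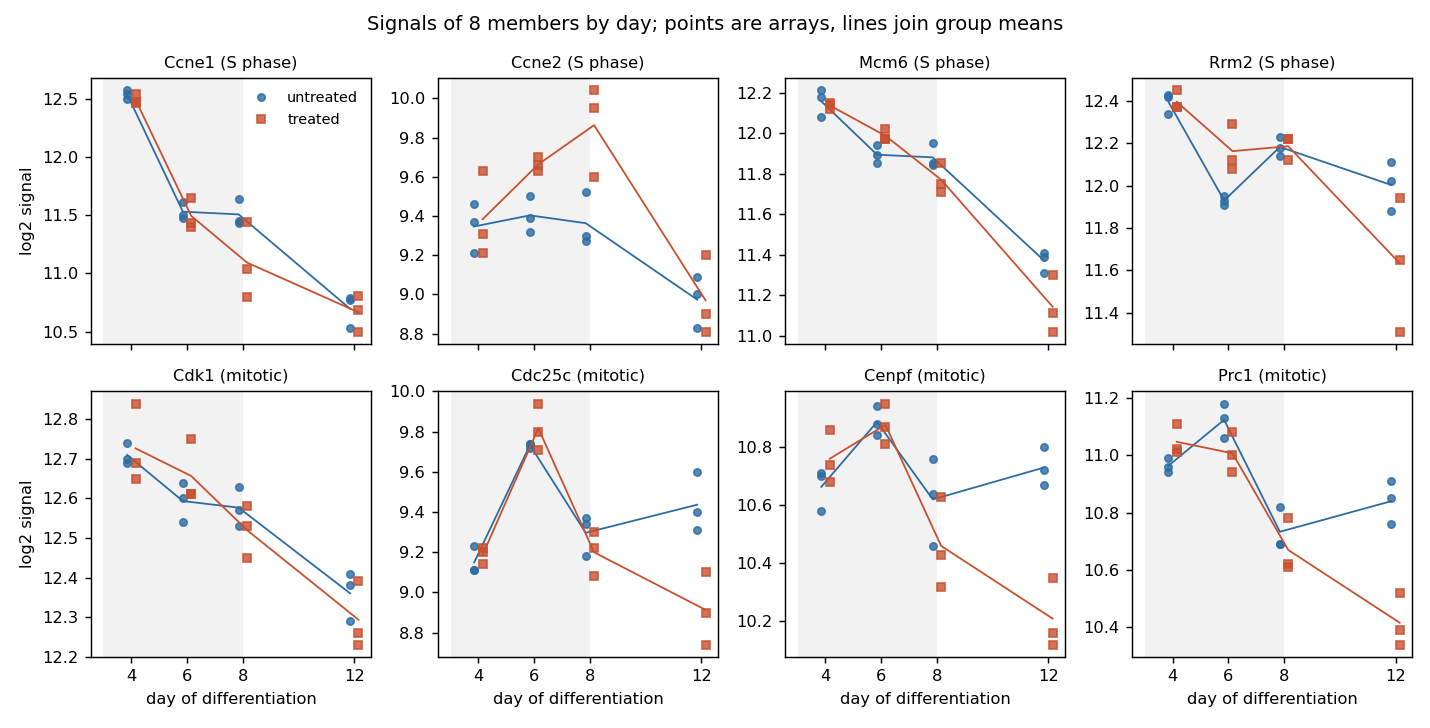
Log2 signal (vertical axis) of 8 members against the day of differentiation (horizontal axis), with 1 point per array, lines through the group means, blue circles for untreated and red squares for treated EBs, and the days of drug treatment in grey. Ccne1 dropped between days 4 and 6 in both groups, Cdc25c peaked at day 6 in both, and at day 12 Cdc25c, Cenpf and Prc1 had every treated array below every untreated array.

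Between days 4 and 6 of untreated culture 14 of 17 S phase members fell (median -0.27), all but Ccne2, Cdt1 and Mcm7, against 1 of 22 mitotic members (Kif20a), while the mitotic members Cdc25c, Ndc80 and Cenpf rose. Among all genes 20.9% fell and 21.1% rose. Leaving out single arrays gave 10 to 11 falling members over both phases, in place of 15. Without untreated day 4 replicate 1 or 3, or untreated day 6 replicate 2 or 3, 1 member rose in place of 3. With quantile normalization or median centring it was also 1.

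Between days 6 and 8 no S phase member fell and Cdc25a, the phosphatase that activates Cdk2, rose by 0.24, whereas 8 mitotic members fell (Cdc25c, Bub1, Bub1b, Ttk, Ndc80, Cenpf, Tpx2 and Prc1), with 18.3% of all genes falling and 17.8% rising. The count of 8 became 5 without untreated day 6 replicate 1, 4 without replicate 2, 5 without replicate 3 and 4 without untreated day 8 replicate 1. At an unadjusted p under 0.05, limma gave 3 S phase members with a difference over these days. Between days 8 and 12, 12 S phase and 9 mitotic members fell and Mki67 rose. Medians were -0.46 and -0.09, against 19.9% of all genes falling and 18.8% rising. The rise of Mki67 over these days was not called without untreated day 8 replicate 2, or without untreated day 12 replicate 2 or 3.

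The treated EBs lost S phase and mitotic signal in the same period. Between days 4 and 12, all 17 S phase members and 19 of 22 mitotic members fell and Mki67 rose, the remaining mitotic members being Ccna2 and Aurkb. Medians were -0.82 and -0.52, and 30.4% of all genes fell while 24.6% rose. All 29 members that fell in untreated EBs were among the 36 that fell in treated EBs. As 36 of 39 members fell there, almost any 29 members would overlap nearly in full. Without treated day 12 replicate 2 the medians were -0.91 and -0.59.

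Over single intervals, 10 S phase members and 1 mitotic member fell between days 4 and 6 and 2 mitotic members rose, with 25.1% of all genes falling and 19.1% rising. Without treated day 6 replicate 3 the count of falls was 7 in place of 11, and without treated day 4 replicate 3 the count of rises was 1 in place of 2. Between days 6 and 8 the treated falls were 7 S phase and 16 mitotic members (medians -0.08 and -0.24), against 24.7% of all genes falling and 16.8% rising. Without treated day 8 replicate 1 there were 14 in place of 23, and without treated day 8 replicate 2 there were 8 and 17, with 1 rise. Between days 8 and 12 all 17 S phase and 16 mitotic members fell (medians -0.47 and -0.25), with 16.7% of all genes falling and 16.5% rising. Without treated day 8 replicate 2 these falls were 15 S phase and 8 mitotic members (medians -0.35 and -0.20), and without treated day 12 replicate 2 they were 17 and 18 (medians -0.57 and -0.32). Among all genes called in treated EBs, the share that rose was 43.2% between days 4 and 6 and 40.5% between days 6 and 8, and with the arrays centred on their medians it was 33.5% and 52.4%. Quantile normalization gave 33.3% and 51.8%.

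**Figure D2:**
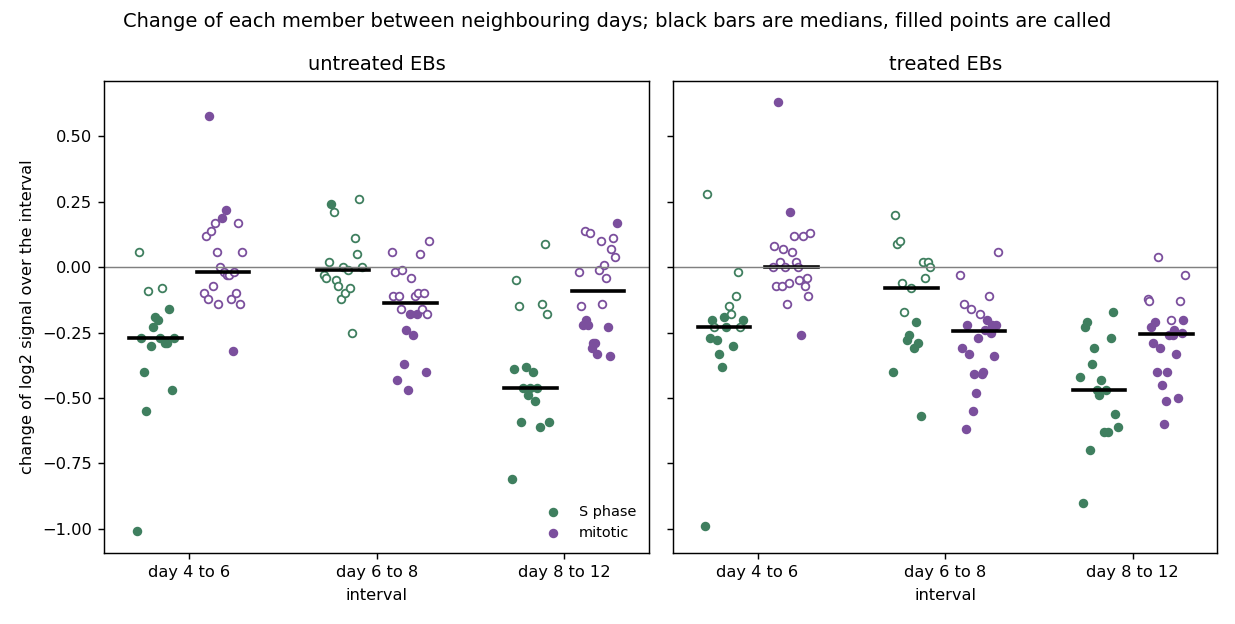
Change of log2 signal (vertical axis) of each member between neighbouring days (horizontal axis), with untreated EBs in the left panel and treated EBs in the right, S phase members in green and mitotic members in purple, filled where called at an adjusted p under 0.05, and a black bar at each median. The untreated S phase median was -0.27, -0.01 and -0.46 over the 3 intervals, while the mitotic median was -0.02, -0.14 and -0.09.

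Across the 8 groups, day 4 held the highest S phase levels and treated day 12 the lowest levels of both phases. For 16 of 17 S phase members the highest group mean was at day 4, in untreated EBs for 7 and in treated EBs for 9, and for Ccne2 it was treated day 8. For 16 of the 17 the lowest group was treated day 12, and for Tyms it was untreated day 12. Mitotic members had their highest mean at day 4 for 10 genes, at day 6 for 10 genes and at untreated day 12 for Aurkb and Mki67. Treated day 12 was the lowest group for 20 of the 22, the exceptions being Aurkb (treated day 8) and Mki67 (treated day 4). Neighbouring groups in these orders were often closer than the spread between replicates. For the mean over all members of a phase, a typical SD between replicates was 0.069 for S phase and 0.066 for mitotic members. The SD of single genes varied more, for example 0.00 for Mcm3 at untreated day 4 and 0.33 for Ccne1 at treated day 8.

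**Figure D3:**
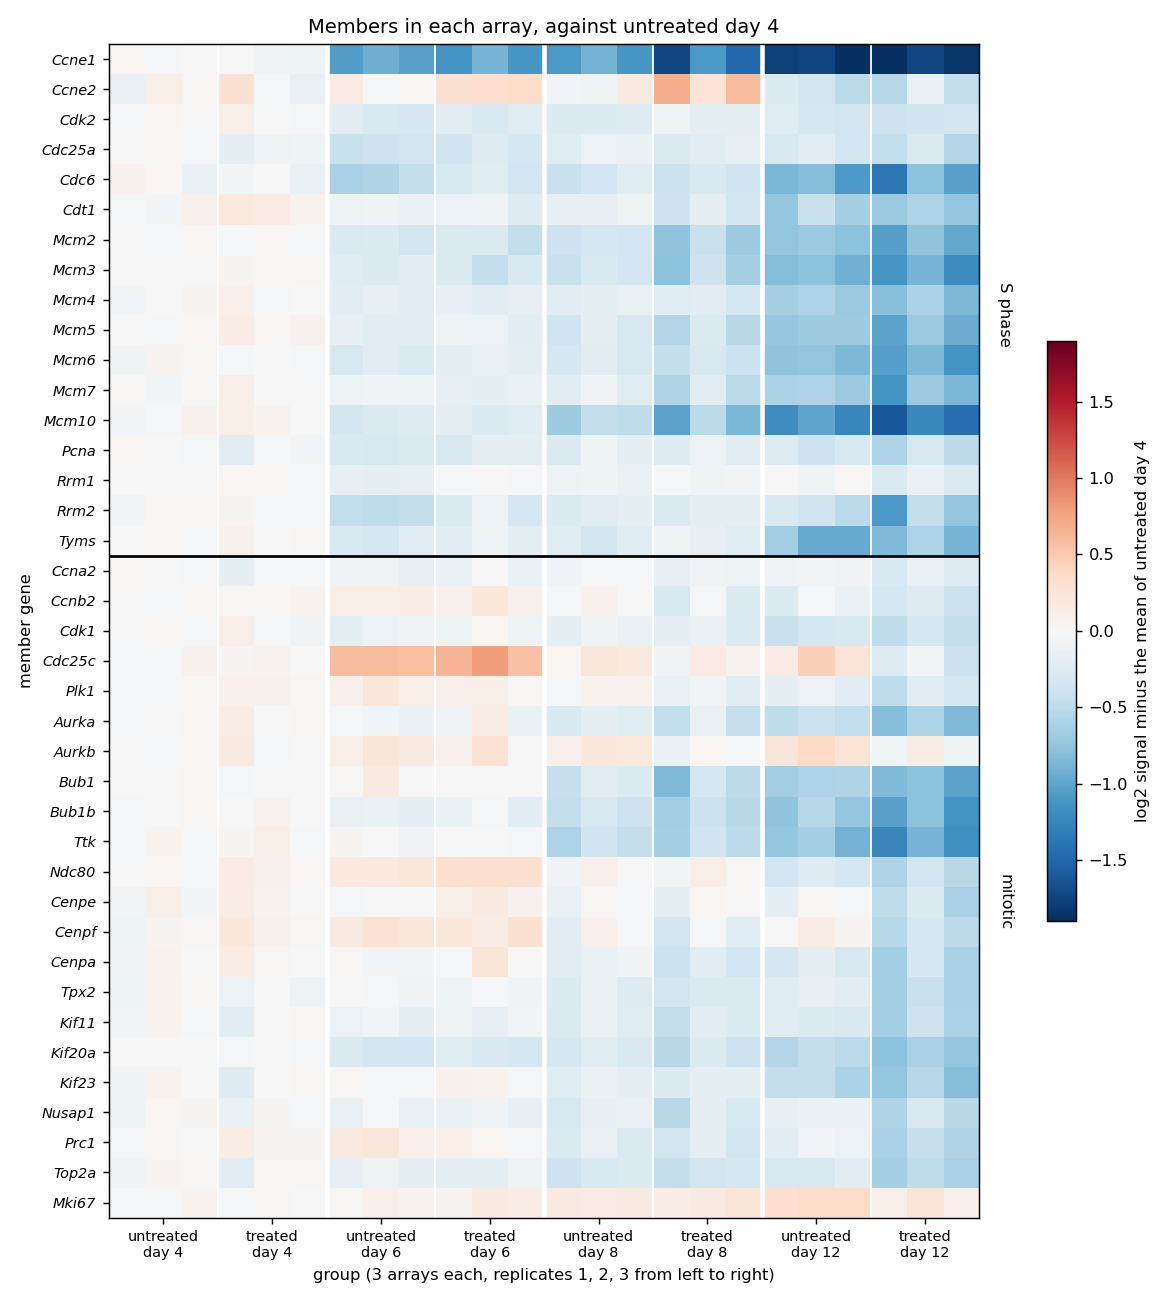
Log2 signal minus the mean of untreated day 4 (colour scale) for the 39 members (rows) in the 24 arrays (columns, in groups of 3 with replicates 1, 2 and 3 from left to right). S phase members above the line turned blue at day 6 and again at day 12, mitotic members below it mostly at days 8 and 12, and the treated day 12 columns were the deepest blue for most of them.

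The drugs left these genes with no called difference at the first 2 collections. At day 4, after 1 day of drug, 0 of 39 members were called by limma and 0 had an unadjusted p under 0.05, with median differences of 0.02 for S phase and 0.03 for mitotic members, and 0.00502% of all genes were called. The smallest p belonged to Cdt1, a licensing factor, with 10.96, 10.95 and 11.09 untreated and 11.19, 11.16 and 11.07 treated (difference 0.14, SE 0.08, adjusted p = 0.862), followed by Cdc25a. Cdc25a was at 11.69, 11.74 and 11.67 untreated and 11.51, 11.61 and 11.62 treated (-0.12, adjusted p = 0.862). Pcna came next, with treated arrays at 12.90, 13.09 and 13.07 (difference -0.10, adjusted p = 0.886). Cdt1 overlapped between the groups, and the treated arrays of Cdc25a and Pcna were all below the untreated ones.

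At day 6, 0 of 39 members were called and 4, all of S phase, had an unadjusted p under 0.05, with 1.84% of all genes called. Rrm1 was at 12.15, 12.12 and 12.15 untreated and 12.26, 12.31 and 12.27 treated (difference 0.14, SE 0.05, adjusted p = 0.234). Treated arrays of Rrm2 were at 12.12, 12.29 and 12.08 (0.24, adjusted p = 0.319). Those of Cdc6 were at 9.43, 9.48 and 9.35 (0.25, adjusted p = 0.322). In these 3 genes, named for their smallest p, all treated arrays were above the untreated ones, but the differences missed the threshold. Other members were separated in either direction, for example Ccne2 higher and Mcm7 lower in all treated arrays. Among all genes called at day 6 the share that rose was 68.6%, and 54.4% after quantile normalization.

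At day 8, at the end of treatment, the 2 cyclin E genes were called in opposite directions. Treated signals of Ccne1 were 10.80, 11.44 and 11.04 against 11.45, 11.64 and 11.43 untreated, a difference of -0.41 (SE 0.12, adjusted p = 0.0322). Only treated replicate 2 reached the untreated range. Ccne2 read 10.04, 9.60 and 9.95 treated against 9.30, 9.27 and 9.52 untreated, so that all treated arrays were higher (0.50, SE 0.12, adjusted p = 0.0128). Mcm2, a helicase subunit, was at 11.64, 11.97 and 11.72 treated and 12.01, 12.07 and 12.03 untreated (-0.26, SE 0.08, adjusted p = 0.0423), with all treated arrays lower.

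These 3 were the members called at day 8, 2 lower and 1 higher, while 4.08% of all genes were called lower and 4.86% higher. No mitotic member was called by limma, and 5 of 22 had an unadjusted p under 0.05. All treated arrays lay below all untreated arrays for 7 of 39 members, against 14.2% of all genes. The S phase median was -0.07 and the mitotic median -0.10, beside -0.04 for all genes. The members called lower numbered 0 without untreated replicate 2, treated replicate 1 or treated replicate 3, 1 without untreated replicate 3, and 9 without treated replicate 2. Ccne2 was not called without untreated replicate 2, treated replicate 1 or treated replicate 3. With the replicate number as a block within the day, 7 members were called lower and 1 higher, and in a fit of the 2 groups alone none were. Median centring turned the share that rose among all called genes from 54.4% to 65.6%, and left 1 member called lower.

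At day 12, 4 days after the drugs were withdrawn, mitotic genes were lower in the treated EBs. Of 22 mitotic members 15 were lower and none higher, with a median difference of -0.29, and of 17 S phase members 4 were lower (Mcm6, Mcm7, Rrm1 and Rrm2), with a median of -0.15. Among all genes 10.4% were called lower and 7.49% higher, and the median was 0.02. In all, 38 of 39 members were below 0, the exception being Tyms at 0.09. All treated arrays lay below all untreated arrays for 16 mitotic and 2 S phase members, against 17.1% of all genes. Without the 4 genes that act in several phases (Ccna2, Cdk1, Mki67 and Top2a), 13 of 18 mitotic members were lower, with a median of -0.30. The difference between the phases was not tested.

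Cdc25c had the largest difference at day 12, with 8.90, 9.10 and 8.74 treated against 9.31, 9.60 and 9.40 untreated (-0.53, SE 0.09, adjusted p = 0.000259). Cenpf, a large kinetochore protein of late G2 and mitosis, was at 10.12, 10.35 and 10.16 against 10.67, 10.80 and 10.72 (-0.52, SE 0.09, adjusted p = 0.000209). Prc1, which bundles the microtubules of the spindle midzone, gave 10.34, 10.52 and 10.39 against 10.76, 10.91 and 10.85 (-0.42, SE 0.07, adjusted p = 0.00015). In each of these 3 genes every treated array was below every untreated one. Top2a, the topoisomerase that untangles chromosomes, read 11.59, 11.74 and 11.60 treated against 11.91, 11.91 and 12.02 untreated, again without overlap (-0.30, SE 0.07, adjusted p = 0.00357). Cenpe, the kinetochore motor, gave 10.15, 10.38 and 10.02 against 10.45, 10.65 and 10.61 (-0.39, SE 0.08, adjusted p = 0.0025). Its groups did not overlap either. Tpx2, a spindle assembly factor that activates Aurora A, differed by -0.35 (adjusted p = 0.000521). Each of these 6 genes was called under every one of the 17 alternatives tried, with the highest adjusted p 0.0449, for Top2a.

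By role, 5 of 7 kinetochore and checkpoint genes, 5 of 6 spindle and cytokinesis genes, 3 of 7 entry genes and both chromosome proteins were lower at day 12. Kinetochore and spindle genes each had a median of -0.31, entry genes one of -0.19. The others called were Nusap1 (-0.34), Ttk (-0.33), Bub1b (-0.31), Aurka (-0.30), Aurkb (-0.29), Kif11 (-0.29), Cenpa (-0.26), Kif20a (-0.21) and Mki67 (-0.19). Mitotic members that were not called included Bub1, at 11.59, 11.66 and 11.42 treated (-0.26, adjusted p = 0.0568), and Plk1, at 11.64, 11.92 and 11.79 (-0.18, adjusted p = 0.0632). In both, all treated arrays were below the untreated ones. Cdk1 had overlapping arrays, 12.23, 12.39 and 12.26 treated (-0.07, SE 0.07, adjusted p = 0.549).

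Among S phase genes at day 12, the ribonucleotide reductase genes Rrm1 and Rrm2 and the helicase genes Mcm6 and Mcm7 were called lower. The 4 G1/S genes had a median of -0.05 with none called, and Ccne1 differed by -0.03 (SE 0.12, 95% interval -0.27 to 0.22). Rrm2 had treated signals of 11.31, 11.94 and 11.65, and it was called lower (-0.37, SE 0.10, adjusted p = 0.0136) with replicate 2 reaching the untreated range. Rrm1 was at 12.03, 12.17 and 12.03 against 12.31, 12.22 and 12.32 untreated (-0.21, SE 0.05, adjusted p = 0.00891), with no overlap. Rrm1 was not called without treated replicate 1 or 3, nor Rrm2 without untreated replicate 1 or treated replicate 1. Of the 9 licensing and helicase genes only Mcm6 (-0.22) and Mcm7 (-0.27) were called, and the median was -0.19. Treated arrays of Mcm5 (10.84, 11.15 and 10.91), Cdc6 (8.34, 8.94 and 8.68) and Pcna (12.53, 12.82 and 12.62) overlapped the untreated ones, with adjusted p-values of 0.111, 0.445 and 0.2.

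The counts at day 12 moved with single arrays. The 4 S phase and 15 mitotic members called lower became 0 and 6 without treated replicate 1, 11 and 21 without treated replicate 2, 1 and 8 without treated replicate 3, 1 and 16 without untreated replicate 1, and 2 and 8 without untreated replicate 2. Without treated replicate 2 the medians were -0.25 for S phase and -0.36 for mitotic members. Cdc25c, Cenpf, Prc1, Cenpe, Tpx2 and Top2a were called each time. With the replicate number as a block within the day, 6 S phase and 19 mitotic members were called lower, Bub1 among them, and in a fit of the 2 groups alone 0 and 7.

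**Figure D4:**
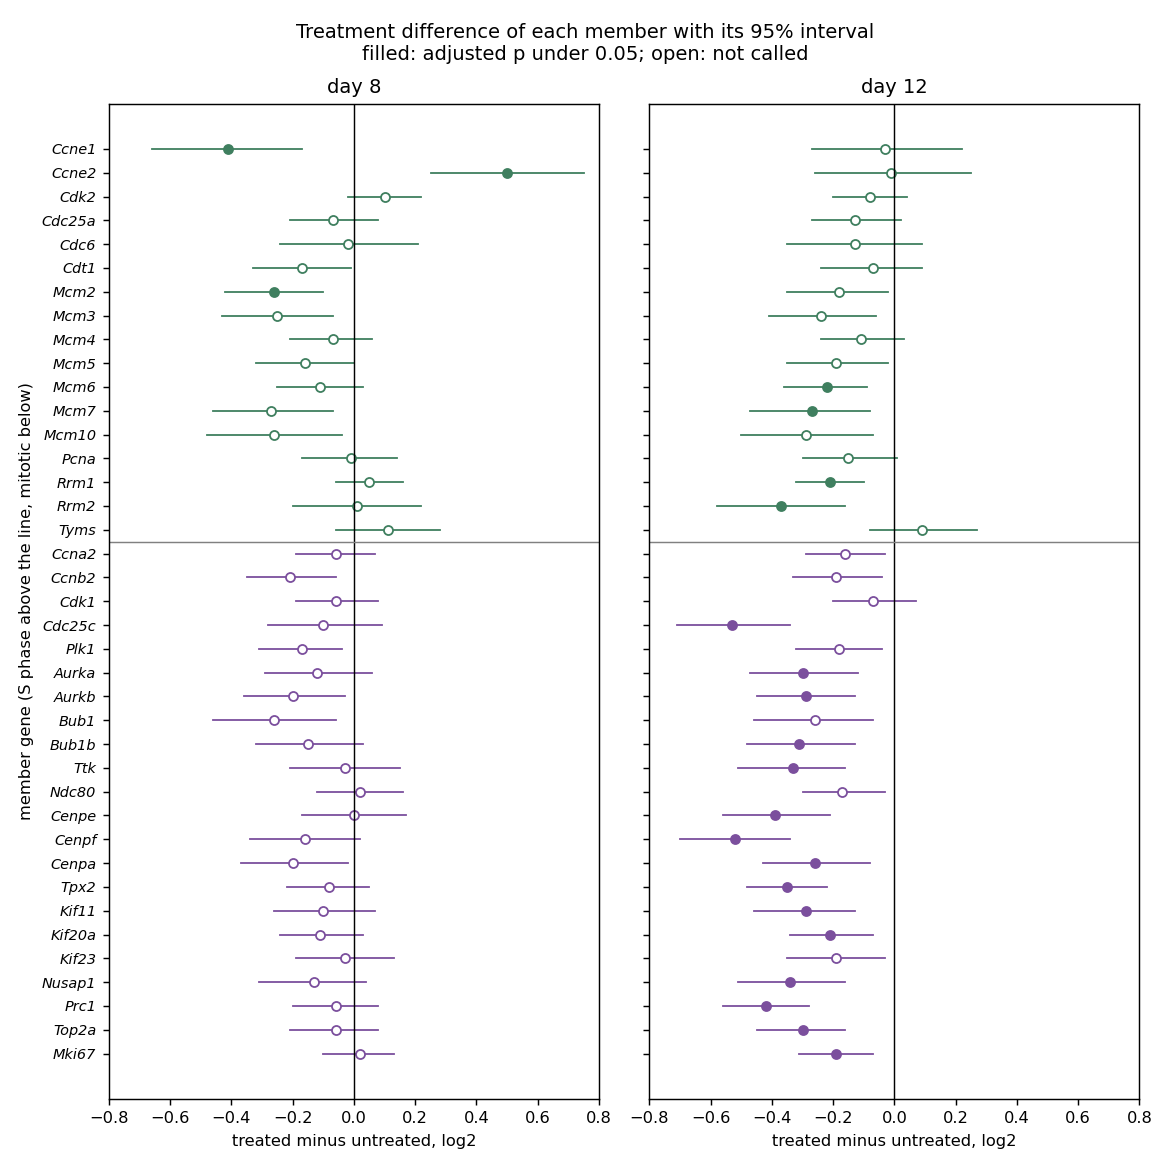
Treated minus untreated log2 signal (horizontal axis) of each member at day 8 (left) and day 12 (right), with 95% intervals, S phase members in green above the line and mitotic members in purple below it, filled where called at an adjusted p under 0.05. At day 8 only Ccne1, Ccne2 and Mcm2 were called, and at day 12 the filled points were 4 S phase and 15 mitotic members, all below 0.

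Averaged over the 4 days, the treated EBs had 3 S phase members lower (Mcm2, Mcm3 and Mcm7), 1 higher (Ccne2, 0.20) and 7 mitotic members lower (Aurkb, Bub1, Cenpf, Tpx2, Nusap1, Prc1 and Top2a). Across all genes 6.24% were lower and 8.21% higher. The medians were -0.05 and -0.09, beside -0.00 for all genes. The count of 10 lower members moved with single arrays: leaving out single arrays gave from 2 (without untreated day 8 replicate 2 or treated day 8 replicate 1) to 16 (without treated day 8 replicate 2), and 16 of the 24 omissions moved it by over 1.5 times. Ccne2 was not called without any one of 7 arrays, among them untreated day 8 replicate 2 and treated day 8 replicates 1 and 3.

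Whether the treatment difference itself changed between days was tested gene by gene, with the arrays of both days. Between days 4 and 12 it became more negative for 4 mitotic members, Cenpf (-0.62, SE 0.12, adjusted p = 0.00328), Cdc25c (-0.56, SE 0.13, adjusted p = 0.0076), Prc1 (-0.51, SE 0.10, adjusted p = 0.00231) and Cenpe (-0.45, SE 0.12, adjusted p = 0.0207), and for no S phase member. Among all genes 6.32% were lower and 2.64% higher on this test. Medians were -0.17 for S phase and -0.27 for mitotic members. Without treated day 12 replicate 2 the 4 became 20. The share that rose among all called genes was 29.4%, and 41.9% after quantile normalization or 39.9% after median centring.

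Between days 8 and 12, after the drugs were withdrawn, the difference became more negative for Prc1 and for Rrm1, while 2.57% of all genes were lower and 2.63% higher. Prc1 was at 10.62, 10.78 and 10.61 treated and 10.69, 10.82 and 10.69 untreated at day 8, where the groups overlapped, and apart at day 12 (change -0.36, SE 0.10, adjusted p = 0.0333). Rrm1 was at 12.26, 12.22 and 12.25 treated and 12.20, 12.22 and 12.16 untreated at day 8, and lower in all treated arrays at day 12 (change -0.26, SE 0.08, adjusted p = 0.0492). Cdc25c missed the threshold narrowly (-0.43, SE 0.13, adjusted p = 0.0517). The count of 2 became 0 without untreated day 8 replicate 1 or 3, untreated day 12 replicate 3, or treated day 12 replicate 1 or 3. It became 1 without untreated day 8 replicate 2, treated day 8 replicate 3 or untreated day 12 replicate 2, and 9 without treated day 12 replicate 2. With the replicate number as a block over all days it was 4 for days 8 to 12 and 10 for days 4 to 12, where Rrm1 had an adjusted p of 0.0505 and Cdc25c one of 0.0239 for the later interval.

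For days 4 to 6 limma called no member, with 2 at an unadjusted p under 0.05 and 0.0953% of all genes called. For days 6 to 8 it called none either, with 4 at an unadjusted p under 0.05 and 0.401% of all genes called, and without treated day 8 replicate 2 there were 2 lower. The medians for days 6 to 8 were -0.14 and -0.12, beside -0.04 for all genes. Among the few genes called for days 6 to 8 the share that rose was 55%, and 69.7% after median centring.

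Other genes of the same pathways, from lists chosen with earlier results of these data known, were read from the same fit. At day 12, 10.4% of all genes were called lower and 7.49% higher. Of 58 further mitotic genes 43 were lower and none higher (median -0.31). They included Cdca8, a partner of Aurora B (-0.55, adjusted p = 5.63e-05), the chromosome motor Kif4 (-0.49), the spindle motor Kif15 (-0.47) and the microtubule polymerase Ckap5 (-0.37). Of 44 further replication genes 12 were lower and none higher (median -0.17), led by Cdc7, the kinase that fires origins (-0.56, adjusted p = 0.000499), with Gins1 (-0.45), Prim1 (-0.40) and Uhrf1 (-0.37). The range over single omissions was 22 to 49 for the mitotic list, lowest without treated replicate 3, and 4 to 21 for the replication list, lowest without treated replicate 3 and highest without treated replicate 2. Omitting treated replicate 1, untreated replicate 1 or untreated replicate 2 gave 5, 7 and 6 replication genes, and omitting untreated replicate 2 gave 27 mitotic genes.

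Of 21 G1 cyclin, E2F and Myc genes 10 were called lower at day 12 and none higher (median -0.23), among them Ccnd1, the cyclin D1 gene (-0.84, SE 0.12, adjusted p = 6.11e-05), its partner kinase gene Cdk6 (-0.54), Mycn (-0.50) and Lin54, a subunit of the DREAM complex (-0.23). Single omissions gave 3 without treated replicate 1, 4 without treated replicate 3, 5 without untreated replicate 2 and 6 without untreated replicate 3. Without treated replicate 2 there were 10 lower and 1 higher, and in a fit of the 2 groups alone 2 were lower. Among 19 cell cycle brakes 4 were lower and 1 higher, beside 10.4% of all genes lower and 7.49% higher. The 1 higher brake was thus near the share of all genes. The lower ones were Rb1, the retinoblastoma gene (-0.77, SE 0.11, adjusted p = 3.67e-05), its family relative Rbl1 (-0.31), Btg2 (-0.60) and Btg1 (-0.32). The inhibitor gene Cdkn2b, named after its values were seen, was the 1 brake called higher (0.41, adjusted p = 0.0267), with overlapping arrays. Cdkn2b was not called without untreated replicate 2 or 3 or treated replicate 2 or 3, and the 4 lower brakes were called without treated replicate 2 as well. Without untreated replicate 1, and in a fit of the 2 groups alone, 3 brakes were called lower.

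Some regulators differed at earlier days. At day 6, 2 of the 21 G1 genes were higher in treated EBs, Myc (11.40 ± 0.08 against 10.69 ± 0.07, SD, 3 arrays each), with a difference of 0.71 (SE 0.11), and the cyclin gene Ccnd2, with 0.54. The adjusted p-values from limma were 0.00119 and 0.0116. Among all genes 1.84% were called at day 6, in either direction. At day 8 the inhibitor gene Cdkn1c, which encodes p57, was 1.10 higher (SE 0.22, adjusted p = 0.00388), while Rb1 (-0.40) and Btg2 (-0.42) were lower. Among all genes 4.08% were called lower and 4.86% higher at day 8. Of 58 further mitotic genes 2 were lower at that day, Nek2 (-0.32) and Ckap2 (-0.30), which is near the share of all genes. Cdkn1c, Rb1, Btg2, Nek2 and Ckap2 were also called without treated replicate 2, where Cdkn1c was 1.39 higher. The further mitotic genes lower at day 8 then numbered 16 and the further replication genes 5, in place of 2 and 0. Calls of these genes without the other single arrays of day 8 are not given here.

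Over the untreated course 42 of 44 further replication genes fell (median -0.60), led by the origin recognition genes Orc1 (-1.85) and Orc2 (-1.24), while 39 of 58 further mitotic genes fell and 7 rose (median -0.36). Mybl2, the gene of B-Myb, fell by 1.81. Among the 21 G1 genes 9 fell and 6 rose, with Ccnd2 up by 2.35, Ccnd1 by 0.92 and Ccnd3 by 0.83. Over this course 30.2% of all genes fell and 27% rose, so the share of G1 genes that rose was near that of all genes. Of the brakes 4 fell and 12 rose, among them Rb1 (1.20), Btg1 (0.99) and Rbl1 (0.92), and Gadd45a fell by 1.38. In treated EBs all 44 replication genes and 55 of 58 mitotic genes fell, with medians of -0.83 and -0.68, against 30.4% of all genes.

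Cell type markers also differed at day 12, with some lists lower and others higher in treated EBs. Among all genes 10.4% were called lower and 7.49% higher. Neuron markers were lower for 12 of 12 genes (median -1.0), with mean signals of 9.47 to 9.88 in untreated and 8.36 to 8.85 in treated arrays. Neural progenitor markers were lower for 7 of 9 (median -0.83), at 10.38 to 10.58 against 9.38 to 10.04. Pluripotent markers were higher for 8 of 12 (median 0.75), at 8.22 to 8.43 against 8.92 to 9.13, and mesenchyme markers for 6 of 10 (median 1.07), at 11.01 to 11.46 against 11.92 to 12.37. Of 8 endoderm markers 5 were higher, among them Afp (1.35) and Apoa1 (1.45), and Foxa2 was lower (-1.0). Of 10 endothelial and blood markers Kdr was higher (1.19). No cardiac marker of 8 was called by limma, and 1 had an unadjusted p under 0.05. Housekeeping genes had mean signals of 11.37 to 11.41 untreated and 11.37 to 11.43 treated, and of the 9 Gusb was called higher (0.19). The 1 higher gene in the endothelial and blood list, and in the housekeeping list, was near the share of all genes. Afp, Apoa1, Foxa2, Kdr and Gusb were named after their values were seen. At day 8, when few members were called, 8 of 10 mesenchyme markers were already higher (median 1.14) and 4 of 9 neural progenitor markers lower (median -0.37). Among all genes 4.08% were called lower and 4.86% higher at that day. Without the treated replicate 2 array, 10 mesenchyme and 4 neural progenitor markers were called at day 8 (medians 1.48 and -0.38), and pluripotent markers called lower went from 2 to 9 of 12. At day 12 the same omission gave 12 neuron and 8 neural progenitor markers lower, and 7 pluripotent, 8 mesenchyme and 4 endoderm markers higher (medians -1.08, -1.04, 0.66, 1.23 and 1.07). Endothelial and blood markers higher at day 8 went from 3 to 6 of 10. The part of cell type composition in the members' differences was not tested.

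**Figure D5:**
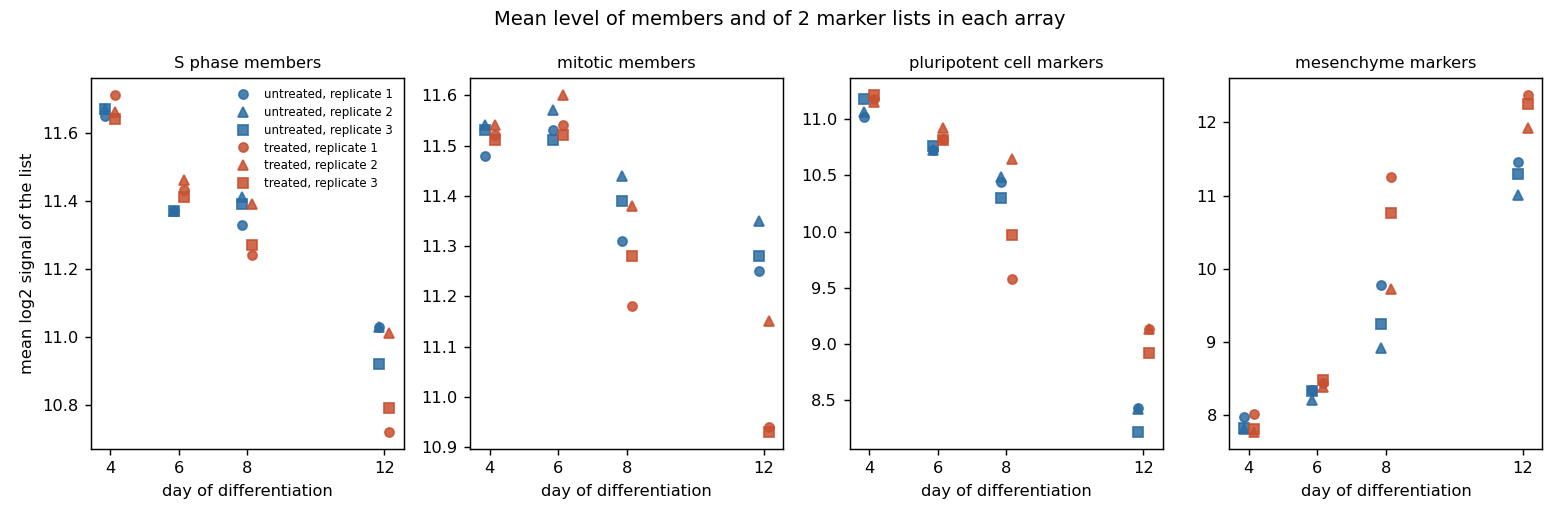
Mean log2 signal (vertical axis) of the S phase members, the mitotic members, the pluripotent cell markers and the mesenchyme markers in each array against the day of differentiation (horizontal axis), blue for untreated, red for treated, with a symbol for each replicate number. At day 12 the mitotic mean was 11.25 to 11.35 in untreated and 10.93 to 11.15 in treated arrays, and treated replicate 2 (triangles) lay nearest the untreated arrays.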

How the data were processed

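Expression was measured on 24 Affymetrix Mouse Gene ST 1.0 arrays, 3 in each of 8 groups by treatment and day. The deposited table holds log2 values made with RMA in Affymetrix Expression Console, per the submitters' processing notes. The log2 scale was read from the range of the values, while software versions and the build are not stated in the labels. Detection calls were not used here, so that a low signal is not shown to be above background. RMA normalizes between arrays, which would remove a change common to all genes.

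Of 35556 probe sets, 21789 carried 1 symbol in the platform annotation, 1621 more than 1, and 12146 no entry. The RefSeq gene table held 21698 of the 21789 by Entrez identifier. Where a gene had more than 1 probe set (999 genes), that of highest mean signal stood for it, leaving 19938 genes. limma 3.58.1 in R 4.3.3 (lmFit, eBayes) modelled each group's mean with all 24 arrays in the fit (16 degrees of freedom left), with Benjamini-Hochberg adjustment over all genes in each contrast and a threshold of 0.05. The fit was checked on simulated data. Tables and plots used Python 3.11.15, pandas 2.3.3, numpy 2.4.6, scipy 1.17.1 and matplotlib 3.10.9. p-values measure the spread between arrays, which the labels call biological replicates. Precision is limited by the number of arrays. Treatment differences had a median SE of 0.09, and the smallest SD of the difference between 2 arrays was 0.121, so that no array was a copy of another.

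The members and all gene lists were chosen with earlier results of these data known. Values in every array are given for 10 preset members (9 of them measured), for the 3 members with the smallest p in each treatment contrast and in the change from day 8 to day 12, and for the 3 largest called changes each way in the courses. Of other lists up to 4 genes with the smallest p were named, with a few others of a count. Promoter motifs were searched on both strands of RefSeq windows.

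Same-numbered arrays correlated in their deviations from group means by 0.297, 0.138 and 0.21 for day 6. The values were 0.479, 0.553 and 0.107 for day 8, and 0.118, 0.341 and 0.253 for day 12, above the minimum of 0.1, but not so for day 4 (-0.014, 0.191 and -0.053). At day 6 each same-numbered pair was above every unlike-numbered pair. Untreated replicate 1 and treated replicate 3, however, correlated by 0.126 at day 8, above the 0.107 of the number 3 pair. At day 12 they correlated by 0.264, above the 0.118 and 0.253 of the number 1 and 3 pairs. Other unlike-numbered pairs of these days were negative. Passing the minimum thus does not show that equal numbers mark paired arrays at days 8 and 12. The main fit did not use the replicate number. The alternatives were a filter at the 40th percentile, quantile normalization, median centring, averaging over probe sets, using all probe sets, array weights, eBayes with trend and robust options, the replicate block, leaving out each array, a fit on the compared groups alone, and a threshold of 0.01. A fit without replicate 2 in every group was added, chosen after seeing the data.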

Additional observations from a re-analysis of the deposited data

Results flagged for a closer look

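The treatment difference changed between days for 5 members by a test of the change itself, with limma's adjusted p. From day 4 to day 12 the difference of Cenpf moved by -0.62, that of Cdc25c by -0.56, that of Prc1 by -0.51 and that of Cenpe by -0.45, each toward lower signal in treated EBs. These were 4 of 39 members, beside 6.32% of all genes called lower and 2.64% higher. From day 8 to day 12 the difference of Prc1 moved by -0.36 and that of Rrm1 by -0.26. These were 2 of 39 members, beside 2.57% of all genes lower and 2.63% higher. With so few members, neither count was far from the share of all genes. Cenpf, Cdc25c and Prc1 kept the change from day 4 to day 12 past the threshold under all 23 alternatives, while Cenpe lost it under 7. For days 8 to 12, Prc1 lost it under 11 and Rrm1 under 16 of the 23. Causes were not tested.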

How the results depend on the processing

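Of 863 values recomputed for the counts and medians, 713 were labelled the same, 150 moved and 0 reversed. A count has no direction, so only medians could reverse. Values labelled the same include counts of 0 that stayed 0, as for treated against untreated at day 4. They also include counts that changed less, such as 10 to 11 in place of 15 falling members in untreated EBs from day 4 to day 6. These labels are therefore no measure of robustness. The cause of the 150 moves was not tested, apart from the stricter threshold, which calls fewer genes by construction. Leaving out arrays lowered some counts and raised others. The 3 arrays a group limit the precision.

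For treated against untreated at day 8, members called lower numbered 1 with median centring, 0 with all probe sets, 14 with array weights, 7 with the replicate block within each day, 0 with only the groups compared, 5 without replicate 2 in every group (chosen after seeing the data) and 0 at an adjusted p of 0.01, where higher calls were also 0, as with only the groups compared. Single omissions gave 0 to 9 lower and 0 to 1 higher. At day 12 the S phase count was 9 with array weights, 0 with only the groups compared, 7 without replicate 2 in every group and 1 at 0.01, and 0 to 11 over single omissions. The mitotic count was 7 with only the groups compared and 8 at 0.01, and 6 to 21 over single omissions. The S phase median was -0.24 without replicate 2 in every group and -0.25 to -0.11 over single omissions, and the mitotic median -0.36 to -0.23. For the mean of the 4 days the lower count was 5 with centring, 3 with all probe sets, 21 with array weights and 1 at 0.01, with 2 to 16 over single omissions. The higher count was 0 with all probe sets and at 0.01, with 0 to 2 over single omissions.

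In untreated EBs from day 4 to day 6, 9 members were lower at 0.01 and 10 to 11 over single omissions. Higher were 1 with quantile normalization, centring, without replicate 2 in every group or at 0.01, 5 with the trend and robust prior or only the groups compared, and 7 with array weights, and 1 to 2 over single omissions. From day 6 to day 8, 4 were lower with quantile normalization or at 0.01 and 4 to 8 over single omissions. Higher were 3 with quantile normalization, 0 without replicate 2 in every group, and 2 with the filter, centring, the trend, array weights, the replicate block over all days or only the groups compared. From day 8 to day 12, higher were 2 with quantile normalization, 0 with only the groups compared, without replicate 2 in every group or at 0.01, and 0 to 1 over single omissions. From day 4 to day 12 quantile normalization gave medians of -0.56 (S phase) and -0.15 (mitotic).

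In treated EBs from day 4 to day 6, 17 were lower with array weights and 6 at 0.01, with 7 to 10 over single omissions. Higher were 5 with array weights and 1 with quantile normalization, without replicate 2 in every group or at 0.01, with 1 to 3 over single omissions. From day 6 to day 8, 15 were lower at 0.01 and 14 to 25 over single omissions. Higher were 3 with quantile normalization, 2 with array weights and 0 to 1 over single omissions. From day 8 to day 12, 19 were lower with only the groups compared. From day 4 to day 12 the medians were -0.72 and -0.43 with quantile normalization, and the S phase median was -0.93 without replicate 2 in every group. Over single omissions they ran from -0.91 to -0.78 and from -0.59 to -0.49. Mitotic members higher were 0 with array weights, only the groups compared, without replicate 2 in every group and at 0.01, and 0 to 1 over single omissions.

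For the change of the treatment effect from day 6 to day 8, 2 were lower with array weights, and 0 to 2 over single omissions. From day 8 to day 12 there were 1 with quantile normalization, centring or without replicate 2 in every group, 0 with all probe sets, only the groups compared or at 0.01, 10 with array weights, 4 with the replicate block over all days, and 0 to 9 over single omissions, while 1 was higher with array weights and 0 to 1 over single omissions. From day 4 to day 12 there were 7 lower with the filter, 9 with the trend, 25 with array weights, 10 with the replicate block over all days, and 3 to 20 over single omissions. At day 4 the same-numbered arrays did not all reach the minimum correlation, so blocked values for that day rest on the number alone. For days 8 and 12 the pairing was not settled, so blocked values are alternatives only. Averaging over probe sets moved none of these counts past 1.5 times. Only Pcna and Top2a had a second probe set of their own, so this averaging could hardly move them.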

Other observations

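Top2a had a second probe set annotated to it alone, with a mean of 5.53 against 11.98 for the one used. Its treatment difference at day 12 was -0.36, beside -0.30 for the one used, and at day 8 it was 0.09 beside -0.06.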
